A study of Homo sapiens and Mus musculus with 8 samples.

Results

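Autophagy machinery and cargo receptors are 44 human genes that carry out successive steps of macroautophagy, from the start signal to the capture of cargo. They were matched by gene symbol among the 58381 genes counted in OVCAR-8 cells. The rule names genes by their role and sets no threshold on a measured value, but the members were picked with earlier results of these data known. All 44 were found in the table, and 43 passed edgeR's filter on low counts, as did 16141 genes in all. MAP1LC3A was the member that did not pass.

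OVCAR-8 is a human ovarian cancer cell line. The cells carried a guide against ATG9A (labelled ATG9A KO, here sgATG9A) or a guide against GAL4 (labelled GAL4 KO, here sgGAL4), a yeast gene that human cells lack. Individual knockouts were made by infection with the lentiCRISPRv2 plasmid, so both groups had been infected. Whether either group came from 1 clone or from a pool is not given in the sources used here. The labels give 2 biological replicates for each guide, and RNA of the cells alone was sequenced in bulk. Totals ran from 22200998 to 22969233 counts per library. With 2 libraries a group, p-values measure the spread between these libraries. For each gene edgeR moderates that spread with the spread of other genes, with a median of 21.3 residual and prior degrees of freedom. Levels are CPM, counts scaled to a common library total with TMM factors. Differences are log2 fold changes of sgATG9A over sgGAL4 from edgeR's quasi-likelihood test, two-sided, with the Benjamini-Hochberg adjustment over all 16141 genes.

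In autophagy a double membrane grows around cytoplasmic cargo and closes into an autophagosome, which fuses with a lysosome. The ULK kinase complex starts the process, and a phosphatidylinositol 3-kinase complex marks the site with the lipid PI3P. Vesicles that carry ATG9A, a lipid scramblase with several membrane spans, provide the first membrane, and ATG2 proteins feed lipid into it. A ubiquitin-like system then attaches ATG8 proteins to the membrane, and cargo receptors such as p62 bind both ubiquitin on the cargo and ATG8 on the membrane.

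Among the 43 tested members, 9 were higher and 2 were lower in sgATG9A cells at an adjusted p under 0.05. The higher members were SQSTM1, OPTN, MAP1LC3B, EPG5, ATG7, BECN1, TBK1, WIPI2 and CALCOCO2, and the lower members were ATG9A and GABARAPL1. Across all genes tested, 8.93% were called higher and 7.42% lower, against 20.9% and 4.65% of the tested members. The median log2 fold change was 0.03 over the tested members and -0.002 over all genes tested, and 27 of the 43 members lay above 0 against 8002 of the 16141 genes. No member passed the fold threshold of the study's methods, an absolute log2 fold change above 1 beside the adjusted p. That rule called 1.28% of all genes higher and 0.644% lower. Both sgATG9A libraries lay above both sgGAL4 libraries in 17 tested members and below both in 10, where the shares over all genes tested were 27.8% and 27.5%.

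**Figure D1:**
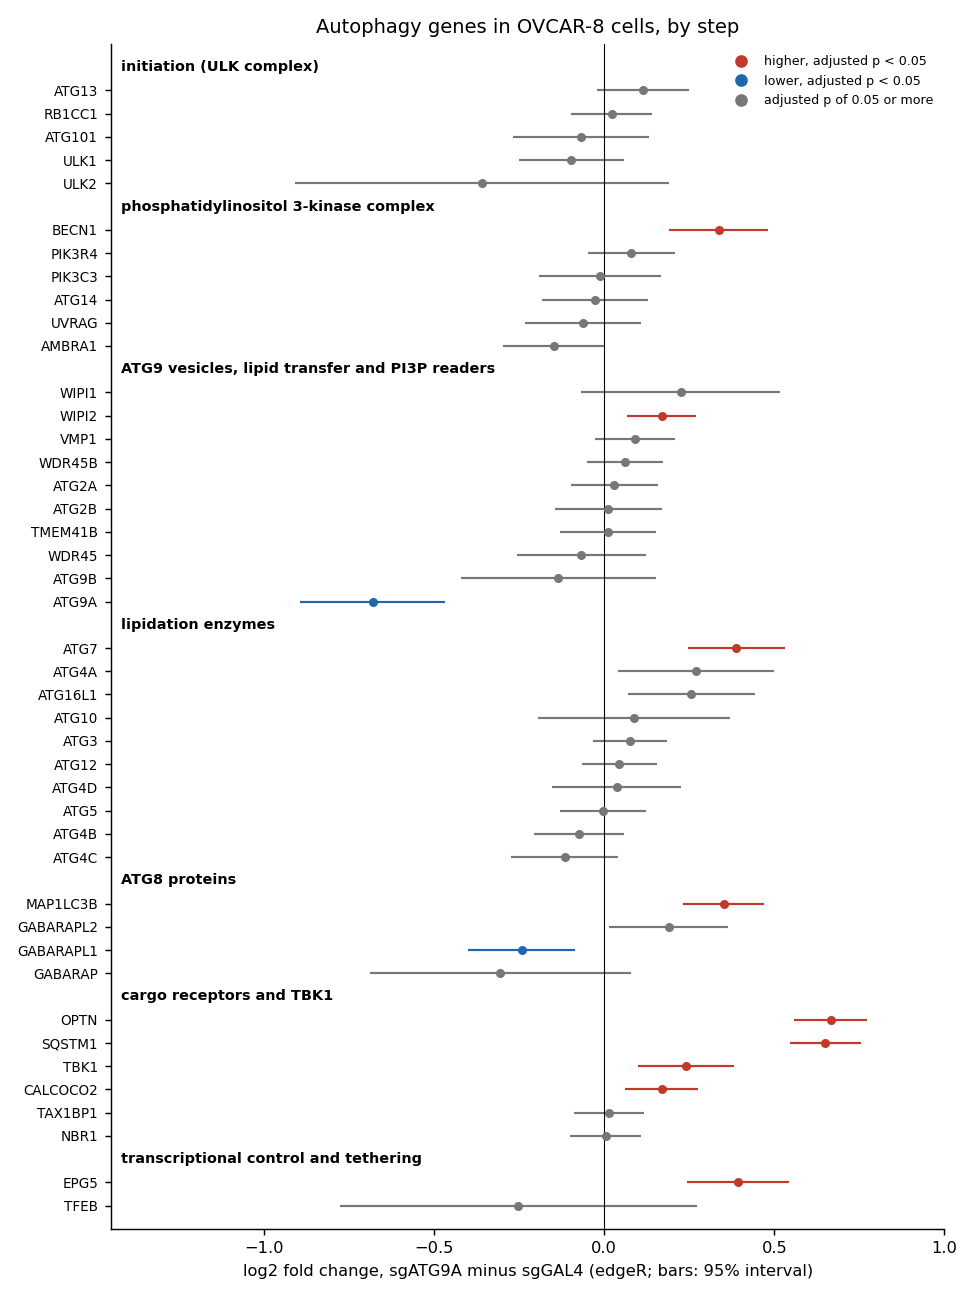
Log2 fold change of each of the 43 tested members (points) with its 95% interval (bars), grouped by step, from edgeR on 2 sgATG9A and 2 sgGAL4 libraries. SQSTM1 and OPTN lie furthest to the right, at 0.65 and 0.67, and ATG9A furthest to the left, at -0.68.

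ATG9A, the targeted gene, was lower in both sgATG9A libraries. ATG9A (ENSG00000198925, chr2:219219380-219229717, minus strand, GRCh38) was counted 457 and 419 times with sgGAL4 and 289 and 261 times with sgATG9A, which is 20.4 and 18.4 CPM against 12.8 and 11.5 CPM. The groups did not overlap. The log2 fold change was -0.68 (SE 0.10, 95% interval -0.89 to -0.47, edgeR adjusted p = 4.22e-05), so 0.624 of the control level of RNA was counted. A Cas9 cut can change the protein while leaving the RNA in place, and these counts hold no measure of the ATG9A protein. In bulk RNA, fewer cells with ATG9A RNA and less of it per cell cannot be told apart.

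If GENCODE v28, used for counting, has the overlaps of v29, the counts of ATG9A came from part of the gene only. The overlaps in v28 were not examined. In GENCODE v29, exons of a second annotated gene, AC068946.2, covered 38.8% of the exonic bases of ATG9A on the same strand, the whole last exon of 1073 bases among them. Per the study's methods, a read that lies on exons of more than 1 gene was counted for neither. The library kit named in the labels reads the ends of transcripts, whereas the study's methods describe paired-end reads, and which of them holds for these libraries was not settled here.

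**Figure D2:**
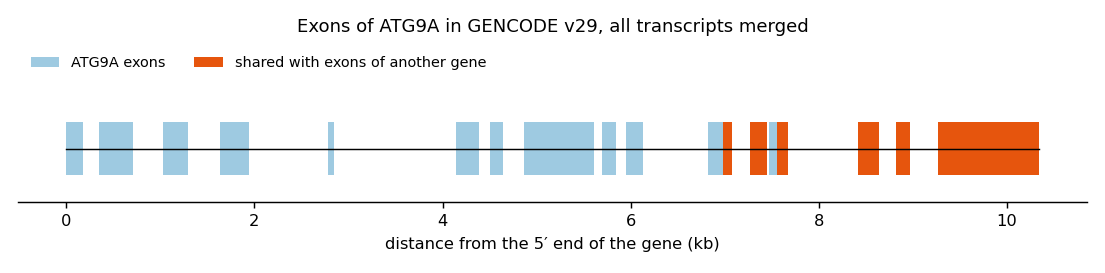
Map of the merged ATG9A exons in GENCODE v29 by distance in kilobases from the 5′ end of the gene. Exonic stretches that another annotated gene shares are in orange. The shared stretches lie in the 3′ part of the gene and take up 38.8% of its exonic bases.

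ATG9B, the paralog of ATG9A, was not called. ATG9B (ENSG00000181652, chr7:151012209-151024499, minus strand) was counted 161 and 171 times with sgGAL4 and 145 and 159 times with sgATG9A, or 7.18 and 7.52 CPM against 6.41 and 6.99 CPM. Both sgATG9A libraries lay below both controls, by a margin smaller than the error of the fit. Its log2 fold change was -0.14 (SE 0.14, 95% interval -0.42 to 0.15, edgeR adjusted p = 0.580). The upper end of that interval is a fold of 1.11, so a rise of ATG9B RNA above that size lies outside it. Exons of NOS3, on the opposite strand, covered 12.3% of the exonic bases of ATG9B, and NOS3 itself had 190 and 221 against 222 and 205 counts, a log2 fold change of 0.05.

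Per kilobase of exon, ATG9B was the lower of the paralogs in every library. The ratio of ATG9B to ATG9A in CPM per kilobase was 0.260 and 0.302 with sgGAL4 and 0.371 and 0.450 with sgATG9A. Over the exonic bases that no other gene shares, the ratios were 0.182 and 0.210 against 0.259 and 0.314. The ratio was thus higher in both sgATG9A libraries on either length, while the CPM of ATG9B was higher in neither. A level per kilobase holds only for reads spread along the transcript.

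The step of ATG9 vesicles, lipid transfer and PI3P readers had 10 tested genes, of which 1 was called higher and 1 lower. That is 10% each way, near the 8.93% higher and 7.42% lower over all genes tested. None of the lipid transfer and scramblase genes that act beside ATG9 vesicles passed the test. ATG2A, which transfers lipid into the growing membrane, had 52.3 and 50.7 CPM in sgGAL4 cells and 51.1 and 54.1 CPM in sgATG9A cells, a log2 fold change of 0.03 (95% interval -0.10 to 0.16). ATG2B, its paralog, had 30.2 and 31.1 against 29.9 and 31.9 CPM, a log2 fold change of 0.01 (95% interval -0.15 to 0.17). The groups overlapped for both ATG2 genes. VMP1 and TMEM41B, scramblases of the endoplasmic reticulum, had log2 fold changes of 0.09 and 0.01 with adjusted p = 0.320 and 0.944 from edgeR.

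Of the PI3P readers, WIPI2, which recruits ATG16L1 to the membrane, was called higher. WIPI2 had 100.2 and 100.4 CPM in sgGAL4 cells and 114 and 111 CPM in sgATG9A cells, so the groups did not overlap. The log2 fold change was 0.17 (SE 0.05, edgeR adjusted p = 0.0198), but it was lost in 5 of the 9 alternative settings, with DESeq2 (adjusted p = 0.0907), with no filter on low counts, and without either sgGAL4 library or sgATG9A replicate 1 (adjusted p from 0.0766 to 0.136). WIPI1, WDR45 and WDR45B had log2 fold changes of 0.22, -0.07 and 0.06 and were not called. WIPI1 was counted at 6.29 to 8.66 CPM, and its 95% interval, -0.07 to 0.52, was wide.

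None of the 5 genes of the ULK complex, which starts autophagy, passed the test. Over all genes tested 8.93% were called higher and 7.42% lower, so 5 genes with no call do not set this step apart. The log2 fold changes were -0.10 for ULK1 and -0.36 for ULK2, the kinases, 0.02 for the scaffold RB1CC1, 0.11 for ATG13 and -0.07 for ATG101. The value of ULK2 rested on 1.63 to 2.33 CPM and had a 95% interval of -0.91 to 0.19.

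BECN1 was the 1 gene of 6 in the phosphatidylinositol 3-kinase complex that passed. It was called higher, which is 16.7% of the step against 8.93% of all genes tested. BECN1, which encodes Beclin 1, a scaffold of the complex, had 32.3 and 31.4 CPM in sgGAL4 cells and 39.8 and 40.7 CPM in sgATG9A cells. Its log2 fold change was 0.34 (SE 0.07, edgeR adjusted p = 0.00144), and it stayed under the threshold in all 9 alternative settings. Exons of CNTD1 and PSME3 on the other strand cover 17.1% of its exonic bases. None of its partners passed the test. PIK3C3, the catalytic subunit VPS34, had a log2 fold change of -0.01, and PIK3R4, ATG14 and UVRAG had 0.08, -0.03 and -0.06. AMBRA1, a regulator of the complex, had the lowest value, -0.15 (95% interval -0.30 to 0.001, edgeR adjusted p = 0.181).

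In the lipidation step 1 gene of 10 passed. It was called higher, and this share of 10% was close to the 8.93% over all genes tested. ATG7, the E1-like enzyme that activates both ATG12 and the ATG8 proteins, rose from 35.9 and 34.3 CPM to 47.5 and 44.3 CPM. The log2 fold change was 0.39 (SE 0.07, edgeR adjusted p = 0.000284), and it was called in all 9 alternatives. Exons of VGLL4 cover 18.1% of the exonic bases of ATG7.

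The other lipidation genes had adjusted p of 0.0561 or more. ATG5, which forms a conjugate with ATG12, had 56.5 and 53.6 CPM in sgGAL4 cells against 56.3 and 53.6 CPM in sgATG9A cells, a log2 fold change of -0.004 (95% interval -0.13 to 0.12). ATG16L1, which places that conjugate on the membrane, was just outside the threshold, with a log2 fold change of 0.26 (edgeR adjusted p = 0.0561), and ATG4A, a protease that trims ATG8 proteins, had 0.27 (adjusted p = 0.103). ATG3 and ATG10, the E2-like enzymes, had 0.08 and 0.09, ATG12 had 0.04, and the proteases ATG4B, ATG4C and ATG4D had -0.08, -0.12 and 0.04.

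ATG8 proteins are anchored in the membrane and bind receptors. Of only 4 tested ATG8 genes, 1 was called higher and 1 lower. That is 25% each way, against 8.93% higher and 7.42% lower over all genes tested. MAP1LC3B, the source of the marker protein LC3B, had 97.4 and 112 CPM in sgGAL4 cells and 133 and 134 CPM in sgATG9A cells, with a log2 fold change of 0.35 (SE 0.06, edgeR adjusted p = 0.000111). GABARAPL1 had 35.2 and 33.9 against 30.3 and 28.03 CPM, a log2 fold change of -0.24 (SE 0.08, edgeR adjusted p = 0.0298). Neither gene's groups overlapped. The call of MAP1LC3B was lost in 1 of 9 alternatives, where no filter on low counts was used (adjusted p = 0.0659), and that of GABARAPL1 in 5 of 9, with DESeq2 (adjusted p = 0.204), with no filter, and without either sgGAL4 library or sgATG9A replicate 2 (adjusted p from 0.0709 to 0.256).

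GABARAPL2 had a log2 fold change of 0.19 (95% interval 0.02 to 0.36, edgeR adjusted p = 0.138) and GABARAP of -0.31 (95% interval -0.69 to 0.08, adjusted p = 0.297). GABARAP was counted at only 3.58 to 5.15 CPM, and other genes share 55.7% of its exonic bases. MAP1LC3A was counted 3 times and 1 time with sgGAL4 and 0 times and 1 time with sgATG9A. The ratio of the groups was 0.246 (exact 95% counting interval 0.005 to 2.49), so no change was detectable at this depth. Per kilobase of exon MAP1LC3B stood first among the 4 tested ATG8 genes in every library, at 18.3 to 25.3 CPM per kilobase, and GABARAPL1 and GABARAPL2 lay at 6.86 to 8.62 and 7.17 to 8.66. Per kilobase, GABARAPL1 was the higher of those 2 in both sgGAL4 libraries and GABARAPL2 in both sgATG9A libraries. In CPM, GABARAPL1 was the higher in every library, at 28.03 to 35.2 against 21.7 to 26.3 for GABARAPL2. The switch in order thus rests on dividing by exon length, which holds only for reads spread along the transcript.

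The step with the most members called was cargo capture, where 4 of 6 genes were higher and none lower. That is 66.7% higher against 8.93% over all genes tested, and the step's median log2 fold change was 0.20. SQSTM1, which encodes the ubiquitin receptor p62, itself broken down by autophagy, had 206 and 202 CPM in sgGAL4 cells and 319.9 and 320.5 CPM in sgATG9A cells. OPTN, which encodes optineurin, a receptor for damaged mitochondria and bacteria, had 98.9 and 104 CPM against 162 and 159.6 CPM. The libraries of each group lay close together and the groups were far apart. The log2 fold change was 0.65 for SQSTM1 (SE 0.05, edgeR adjusted p = 1.38e-09) and 0.67 for OPTN (SE 0.05, adjusted p = 1.52e-09), folds of 1.57 and 1.59, above those of 96.3% and 96.4% of all genes tested. Both were called in all 9 alternatives. Exons of MRNIP and MGAT4B on the other strand cover 22% of the exonic bases of SQSTM1, and reads were counted without strand. MRNIP had a log2 fold change of 0.22 and MGAT4B of -0.03, and neither was called.

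CALCOCO2 and TBK1 were called with smaller changes. CALCOCO2, the receptor NDP52, had 81.9 and 81.0 CPM in sgGAL4 cells and 91.6 and 91.6 CPM in sgATG9A cells, a log2 fold change of 0.17 (SE 0.05, edgeR adjusted p = 0.0265). TBK1, a kinase that phosphorylates OPTN and p62, had 42.3 and 39.1 against 46.2 and 50.0 CPM, a log2 fold change of 0.24 (SE 0.07, adjusted p = 0.0173). Neither gene's groups overlapped. DESeq2 called neither (adjusted p = 0.130 and 0.116), and CALCOCO2 held in 3 and TBK1 in 5 of the 9 alternatives. The call of CALCOCO2 was lost without any 1 of the 4 libraries (adjusted p from 0.102 to 0.113), and that of TBK1 without sgGAL4 replicate 2 or sgATG9A replicate 2 (adjusted p = 0.165 and 0.202). The other receptors were not called. NBR1, which works together with p62, had a log2 fold change of 0.004 (95% interval -0.10 to 0.11), and TAX1BP1 had 0.01 (95% interval -0.09 to 0.12).

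EPG5, a tether that joins autophagosomes to late endosomes and lysosomes, rose from 30.0 and 31.4 CPM to 41.6 and 39.1 CPM, with no overlap. Its log2 fold change was 0.39 (SE 0.07, edgeR adjusted p = 0.0004), called in all 9 alternatives. TFEB, the transcription factor that drives lysosomal and autophagy genes, was counted at only 1.85 to 3.08 CPM and had a log2 fold change of -0.25 (95% interval -0.78 to 0.27, adjusted p = 0.571).

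**Figure D3:**
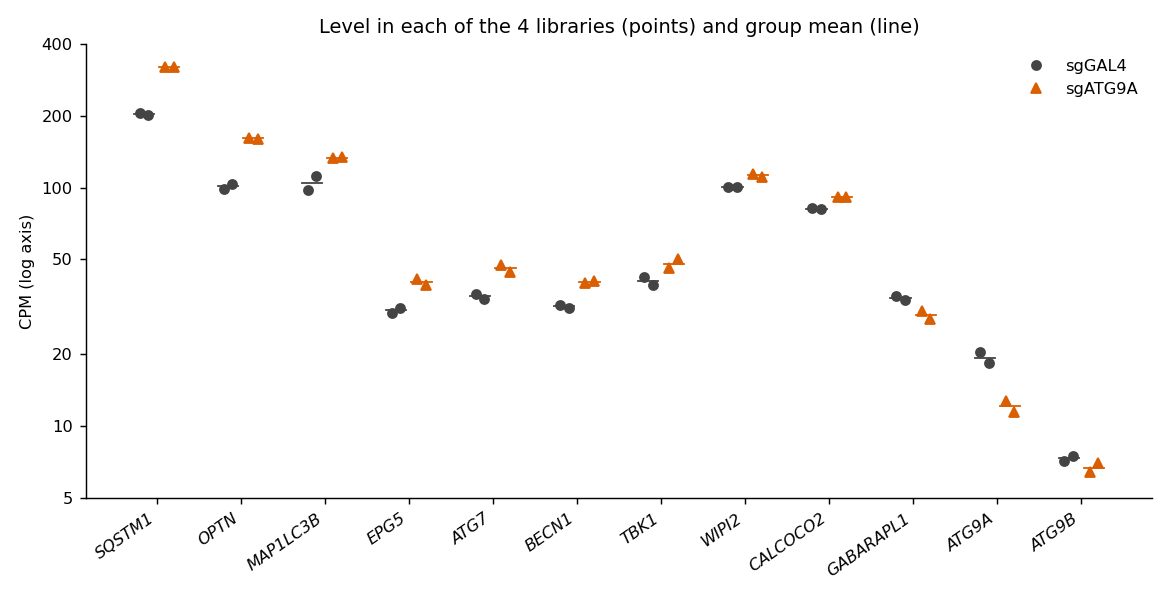
CPM on a log axis in each of the 2 sgGAL4 (grey circles) and 2 sgATG9A (orange triangles) libraries for the 11 called members and ATG9B, with a line at each group mean. SQSTM1 runs from 202 to 320.5 CPM, and the groups are apart for each gene shown, ATG9B included, although ATG9B did not pass the test.

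Of the 32 tested members with no call, 28 had a 95% interval that lay wholly within 0.5 of 0 on the log2 scale. The 4 others, ULK2, WIPI1, GABARAP and TFEB, all had under 10 CPM, and larger changes of these lie within their intervals. Over all genes tested, 8609 of the 13502 with no call met the same bound. The median SE was 0.072 over the tested members and 0.0973 over all genes tested.

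The sequences before the starts of the 3 raised members with the smallest p are shown so that they can be read beside one another. They are the 250 bases upstream, from RefSeq on GRCh38.p14, read in the direction of the gene, and 38 of the 44 members had an entry. Letters searched on both strands were CACGTG (the E-box at the core of the TFEB-type CLEAR element), GGANNTTCC (a kB-type site), TGACNNNGC (the core of an antioxidant response element), TGACTCA (AP-1) and TGACGTCA (CRE), and any match is in capitals. OPTN has a pair of listed starts, SQSTM1 has 3 and MAP1LC3B has 1, and the upstream-most start of OPTN and the downstream-most of SQSTM1 are shown.
OPTN, chr10:13099832-13100081, plus strand: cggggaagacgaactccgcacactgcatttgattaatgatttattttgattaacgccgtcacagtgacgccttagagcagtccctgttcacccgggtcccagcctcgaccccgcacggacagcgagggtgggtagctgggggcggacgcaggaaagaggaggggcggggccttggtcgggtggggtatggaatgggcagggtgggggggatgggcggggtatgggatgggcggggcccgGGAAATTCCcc
SQSTM1, chr5:179820655-179820904, plus strand: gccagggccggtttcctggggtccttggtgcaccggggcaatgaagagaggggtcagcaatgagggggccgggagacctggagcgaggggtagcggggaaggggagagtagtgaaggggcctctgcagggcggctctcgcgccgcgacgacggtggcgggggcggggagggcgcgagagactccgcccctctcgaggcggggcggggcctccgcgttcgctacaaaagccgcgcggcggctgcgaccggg
MAP1LC3B, chr16:87392086-87392335, plus strand: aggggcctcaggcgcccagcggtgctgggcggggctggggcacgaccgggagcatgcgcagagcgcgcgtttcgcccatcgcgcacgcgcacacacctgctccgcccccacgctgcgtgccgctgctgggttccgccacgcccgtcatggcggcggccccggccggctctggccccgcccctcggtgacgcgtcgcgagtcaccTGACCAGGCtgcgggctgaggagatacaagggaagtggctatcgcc

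In OPTN the kB-type letters GGAAATTCC begin 11 bases before that start and 92 before the other. The kB-type letters stood in 3.84% of all 35116 promoter windows and in 3 of the 38 members, OPTN, ATG5 and PIK3C3. The percentages here count windows, whereas a member counted if any of its windows matched. A member with several starts had more chances, so members and percentages cannot be compared directly. MAP1LC3B has the antioxidant-type letters TGACCAGGC 46 bases before its start, and those letters stood in 10.9% of all promoters and in 4 members, MAP1LC3B, CALCOCO2, ATG101 and ATG9B. None of the 5 patterns was found in the windows of SQSTM1. The E-box letters stood in 6.34% of all promoters and in 3 members, TBK1, ATG3 and ATG14. The AP-1 letters stood in 4.2% of all promoters and in 2 members, ATG9B and WDR45. For the CRE letters it was 1.65% and 1 member, GABARAPL1. The letters are descriptions of these windows and were not tested for function.

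Genes around the members were read from lists of related processes, beside the 8.93% higher and 7.42% lower over all genes tested. DESeq2 called fewer genes in all, 5.96% higher and 4.14% lower of 14362, and its counts below are to be read beside those shares. In the list of ATG9 traffic, with adaptors and Rab proteins that move ATG9A vesicles, 2 of 28 tested genes were higher (7.14%) and 4 lower (14.3%), with a median log2 fold change of 0.01. The higher share was below that over all genes. DESeq2 called 1 higher, RUSC2, and 1 lower, AP2M1. RUSC2, an adaptor that links ATG9A vesicles to kinesin, had 1956 and 2007 counts in sgGAL4 cells and 2839 and 2903 in sgATG9A cells, a log2 fold change of 0.53 (SE 0.05, edgeR adjusted p = 3.71e-08). AP4M1, a subunit of the AP-4 complex that carries ATG9A out of the trans-Golgi network, had 336 and 369 against 283 and 283 counts, a log2 fold change of -0.32 (adjusted p = 0.0323). AP2M1 and AP2A1, subunits of the endocytic AP-2 adaptor, had log2 fold changes of -0.18 and -0.15. Of 12 other core autophagy genes tested 1 was called, the kinase gene DAPK1, which fell by 0.58 on the log2 scale. That is 8.33% lower, close to the 7.42% over all genes tested.

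Downstream of the members, 6 of 27 tested lysosomal genes were higher (22.2%) and 2 lower (7.41%), with a median of 0.06. The lower share was close to that over all genes tested. DESeq2 called 6 higher and 0 lower, where its shares over all genes were 5.96% and 4.14%. With no filter on low counts 2 were higher and 0 lower, and the lower calls also fell to 0 without sgGAL4 replicate 1, sgGAL4 replicate 2 or sgATG9A replicate 1. CTSB and CTSL, cathepsin proteases, had log2 fold changes of 0.38 and 0.28, and NPC1, a cholesterol exporter, had 0.35. Among 13 tested genes of autophagosome-lysosome fusion 2 were higher (15.4%), RAB7A at 0.21 and the SNARE gene STX7 at 0.18, and none was lower. DESeq2 called only RAB7A among them. Receptors of organelle autophagy counted 1 higher gene, BNIP3 at 0.16, and 1 lower, FKBP8 at -0.17, of 17 tested. That is 5.88% each way, below the 8.93% higher and 7.42% lower over all genes tested, and DESeq2 called none of these receptors.

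Upstream, 4 of 25 tested nutrient and energy sensing genes were higher (16%) and 2 lower (8%). Over all genes tested the shares were 8.93% and 7.42%, so the lower share was close to that of all genes. The 4 with the smallest p were SESN3 at -0.74, DDIT4 at 0.92, DEPTOR at -1.18 and SESN2 at 0.42. All 4 encode regulators of mTORC1 signalling. The values of DEPTOR and DDIT4 rest on few counts. DEPTOR was counted 73 and 60 times with sgGAL4 and 24 and 35 times with sgATG9A. DDIT4 was counted 65 and 74 times against 148 and 117 times. The list's median was 0.02, and DESeq2 called 2 higher and 1 lower.

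A pair of stress lists had the highest medians of the lists read. Several other lists also had medians further from 0 than the members' 0.03, on either side. Of 9 tested KEAP1-NRF2 genes, a pathway that p62 feeds into by binding KEAP1, 5 were higher (55.6%) and none lower. Over all genes tested 8.93% were higher. The list's median was 0.22, and DESeq2 called 4, HMOX1 not among them. TXNRD1, SLC7A11, NQO1 and HMOX1, targets of the factor, had log2 fold changes of 0.45, 0.59, 0.28 and 0.46, and NFE2L2 and KEAP1 themselves had 0.10 and 0.05 and were not called. All 8 NF-kB marker genes were higher (7 with DESeq2), with a median of 1.72. The 4 with the smallest p were BIRC3 at 2.78, NFKBIA at 1.89, ICAM1 at 1.77 and TNFAIP3 at 2.97. Their part in the members' values was not tested.

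**Figure D4:**
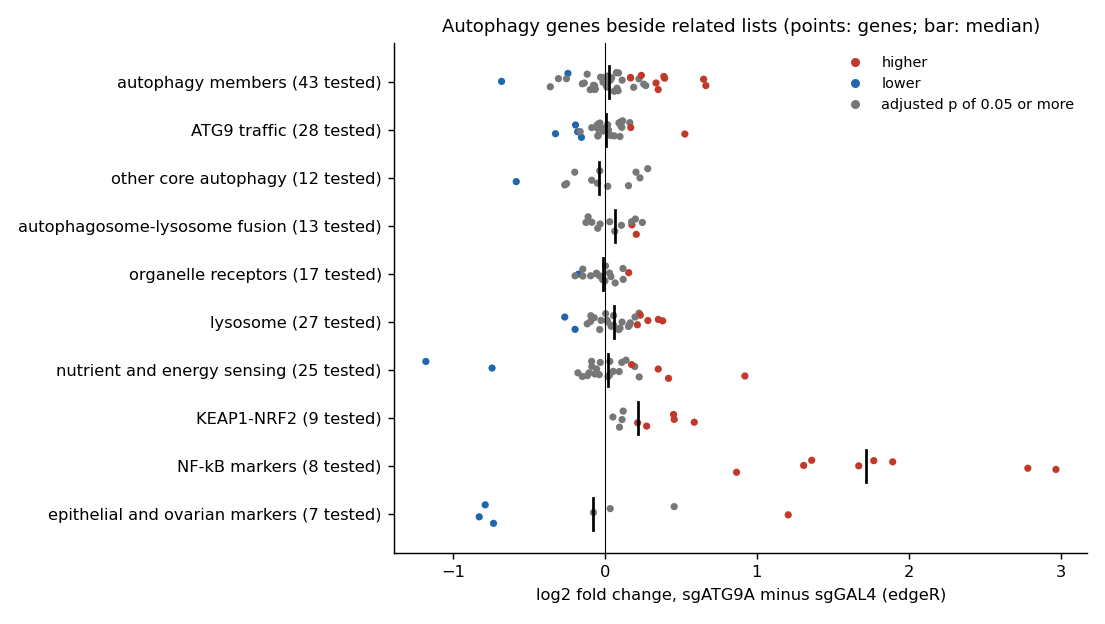
Log2 fold change of each tested gene (points) in the autophagy members and in 9 other lists, with a bar at the median of each list and calls in colour. The members' median lies at 0.03 and that of the NF-kB markers at 1.72.

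The identity of the line was read from 9 epithelial and ovarian markers. PAX8, KRT7, KRT8, KRT18, MSLN, EPCAM and WT1 were detected in every library, while KRT19 had no count and MUC16 had 2 in all. PAX8 was higher (log2 fold change 1.21), and KRT8, KRT18 and KRT7 were lower (-0.73, -0.83 and -0.79). Of 8 macrophage markers PTPRC, CD163, FCGR3A and TYROBP had no count in any library and LYZ had 2 in all. CD14 was counted 23 and 20 times with sgGAL4 and 6 and 1 times with sgATG9A, ITGAM 5 and 9 against 19 and 28, and CSF1R 11 and 15 against 12 and 5.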

How the data were processed

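Bulk RNA of OVCAR-8 cells with sgATG9A or sgGAL4 was analysed from 4 libraries. The values that the authors deposited are raw counts for each gene. Per the study's methods and the labels, reads were trimmed with Cutadapt, aligned with STAR to GRCh38, and uniquely mapped reads were counted over GENCODE v28 exons with featureCounts, without strand and leaving out reads on more than 1 gene. Symbols, positions and exon overlaps were taken from GENCODE v29, which held 58261 of 58381 identifiers, and overlaps may differ from those of the annotation used for counting.

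The counts were filtered (filterByExpr), normalized (TMM) and tested in R 4.3.3 with edgeR 4.0.16 (quasi-likelihood test, two-sided, no covariate), with Benjamini-Hochberg adjustment over 16141 genes and a call at an adjusted p under 0.05. The study's methods used DESeq2, run here as an alternative (version 1.42.0) beside RLE size factors, tests without the filter, a minimum of 50 counts in all, leaving out each library, and the replicate number as a block. No per-sample column was left out. Precision is set by the depth, 22200998 to 22969233 counts a library, and by having 2 libraries a group. In data simulated for sgATG9A against sgGAL4, 72 of 100 genes with a 1.5-fold change and 89 of 100 with a 2-fold change were found by edgeR, with 4 false calls among 15830 genes tested. The counting interval covers counting error only.

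The members and the lists of other genes were chosen with earlier results of these data known. Values in every library were given for ATG9A, ATG9B, each called member and ATG2A, ATG2B, ATG5, BECN1, SQSTM1, MAP1LC3A and MAP1LC3B. Other members were given by log2 fold change within their step, and from other lists up to 4 called genes with the smallest p. 1 gene that this rule names is not reported here. Other genes named, NOS3, MRNIP, MGAT4B and list members with no call, were chosen after their values were seen. The single-cell libraries of the series were not used here.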

Additional observations from a re-analysis of the deposited data

How the results depend on the processing

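The 9 higher and 2 lower members were 9 and 2 with RLE size factors and with a minimum of 50 counts, 6 and 1 with DESeq2, 5 and 1 with no filter on low counts, and 0 and 0 where an absolute log2 fold change above 1 was also asked. Leaving out 1 library gave 6 to 7 higher and 1 to 2 lower, 1 lower without sgGAL4 replicate 1, sgGAL4 replicate 2 or sgATG9A replicate 2. A lone library is then assumed to vary like the other group. Calls over all genes also fell in each of these fits. As shares of all genes, DESeq2 called 5.96% higher and 4.14% lower, and the test with no filter 1.78% and 1.13%. Over all genes, 1441 were called higher and 1198 lower, against 856 and 594 with DESeq2, 578 and 365 with no filter, where 32430 genes shared the adjustment, and 893 and 736 without sgGAL4 replicate 1. ATG9A, SQSTM1, OPTN, EPG5, ATG7 and BECN1 were called in all 9 alternative settings, and ATG9B in none, with a log2 fold change from -0.20 to -0.07 (adjusted p from 0.571 to 0.873).

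Leaving out 1 library turned the sign of 13 members, none of them called. Their log2 fold changes ran from -0.0468 to 0.0927 for RB1CC1, -0.18 to 0.0566 for ATG101, -0.0672 to 0.042 for PIK3C3, -0.0567 to 0.0017 for ATG14, -0.13 to 0.0095 for UVRAG, -0.0125 to 0.0732 for ATG2A, -0.0359 to 0.0589 for ATG2B, -0.10 to 0.14 for TMEM41B, -0.044 to 0.12 for ATG4D, -0.0402 to 0.0323 for ATG5, -0.0365 to 0.20 for ATG10, -0.016 to 0.0229 for NBR1 and -0.0021 to 0.0284 for TAX1BP1. The cause was not tested. With the replicate number as a block, 10 members were higher and 2 lower, and ATG16L1 was added (edgeR adjusted p = 0.0229). Calls rose over all genes tested too, to 11.4% higher and 9.65% lower, from 8.93% and 7.42% without the block. ATG9A had a log2 fold change of -0.68 and ATG9B of -0.14 with the block. No source says what a shared number stands for, and the deviations of same-numbered libraries from their group means had a correlation across genes of only 0.0496, or 0.150 over genes above a mean log2 CPM of 3, so the numbers were not taken as pairs.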
